A study of Mus musculus with 6 samples.

Results

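Translation initiation and elongation factors are the proteins that bring the ribosome to an mRNA, find its start codon and then move the ribosome along the coding sequence. Their genes were taken as the entries of the deposited expression table whose symbols start with Eif1 to Eif6 or with Eef1 or Eef2, a rule on names that uses no measured value. The rule gave 62 of the 13743 entries. Averaged over the 6 libraries, 59 of them reached 1 RPKM, and Eef1a2, Eif4e3 and Eif4ebp3 stayed below it. RPKM is a read density corrected for gene length and for library size, so levels can be set side by side between genes.

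In initiation, eIF2 carries the initiator tRNA to the small ribosomal subunit, eIF3 bridges that subunit to the mRNA, and the eIF4F complex (eIF4E on the cap, the scaffold eIF4G and the helicase eIF4A) recruits the mRNA. Control acts mainly at 2 of these steps: kinases phosphorylate eIF2 and so block its recycling by eIF2B, and the 4E-BPs hold eIF4E away from eIF4G under the control of mTOR. In elongation, eEF1A delivers aminoacyl-tRNAs and eEF2 moves the ribosome on by a codon.

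The cells were mouse embryonic stem cells (ESCs) of strain C57/129 with the genotype Dgcr8-/-, which holds for all 3 groups. Dgcr8 is the partner of Drosha in microRNA maturation, so these cells make no canonical microRNAs. The miR-294 group received a mimic of miR-294, a member of the large microRNA cluster of mouse ESCs, and the siMbd2 group received an siRNA against Mbd2, which encodes a protein that binds methylated DNA. The treatment of the CTR wells is given only by the table's name for them, mock. Each group had 2 libraries, with 50 nM of mimic or siRNA given 16 h after plating and cells taken 48 h after transfection. Total RNA was sequenced as paired-end Illumina libraries. The labels do not say whether the pairs came from separate cultures or how many Dgcr8-/- lines were used, so a p-value here covers library-to-library spread alone, which may be technical.

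Mbd2 had 11.3 and 12.3 RPKM in the miR-294 libraries, 7.33 and 6.34 RPKM in the siMbd2 libraries and 26.8 and 27.9 RPKM in the CTR libraries, so the siMbd2 labels hold and Mbd2 was lower with miR-294 too. Dgcr8 had 6.66 to 8.44 RPKM over the 6 libraries, so its level by itself does not show the genotype, which is taken from the labels. Of 8 ESC markers, 8 were at or above 1 RPKM in every library. Of 8 feeder fibroblast markers 3 were listed. They summed to 4.15 and 3.82 RPKM with miR-294, 1.27 and 1.39 RPKM with siMbd2 and 1.92 and 1.75 RPKM in CTR. Most of each sum was Thy1. It was at 3.6 and 3.37 RPKM with miR-294, 0.96 and 1.13 RPKM with siMbd2 and 1.56 and 1.47 RPKM in CTR. Pdgfrb was at 0.26 RPKM in both miR-294 libraries, 0.12 and 0.07 RPKM with siMbd2 and 0.28 and 0.22 RPKM in CTR. Col1a1 was at 0.29 and 0.19 RPKM with miR-294, 0.19 RPKM in both siMbd2 libraries and 0.08 and 0.06 RPKM in CTR. The markers of primitive endoderm summed to 2.39 to 3.49 RPKM and those of trophoblast to 4.05 to 5.36 RPKM over the 6 libraries. Within the endoderm list Sox7 was at 1.28 and 1.15 RPKM with miR-294, 0.23 and 0.29 RPKM with siMbd2 and 0.10 and 0.20 RPKM in CTR. Gata6 was at 0.70 and 0.77 RPKM with miR-294, 0.12 and 0.14 RPKM with siMbd2 and 0.15 and 0.18 RPKM in CTR. Gata4 went the other way, at 0.96 and 0.92 RPKM with miR-294, 2.07 and 1.83 RPKM with siMbd2 and 3.05 and 2.48 RPKM in CTR. Sox17 and Pdgfra were at 0.17 RPKM or less in every library. In the trophoblast list Cdx2 was at 0.79 and 0.77 RPKM with miR-294, 0.31 and 0.30 RPKM with siMbd2 and 0.20 RPKM in both CTR libraries. Gata3 and Krt7 lay at 1.64 to 2.81 RPKM. The summed ESC markers were 4832 and 4845 RPKM with miR-294, 6542 and 6201 RPKM with siMbd2 and 5746 and 5341 RPKM in CTR. Most of each sum is Dppa5a, and without it the sums were 1875 and 1856 RPKM with miR-294, 1826 and 1825 RPKM with siMbd2 and 1769 and 1699 RPKM in CTR. Pou5f1, the largest part of the sums without Dppa5a, was at 1059 and 1056 RPKM with miR-294 and 790.4 and 688.8 RPKM in CTR. In the miR-294 pair Pou5f1 and Zfp42 were highest, while Nanog, Sox2, Klf4, Tfcp2l1 and Dppa5a were lowest. Esrrb overlapped between miR-294 and CTR. The part of these marker levels in the results was not tested, and in bulk RNA fewer cells of a type and less RNA per cell cannot be told apart. The median absolute log2 difference between the libraries of a group was 0.063 for miR-294, 0.060 for siMbd2 and 0.136 for CTR.

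These genes were among the abundant mRNAs. Their median level was 93.8 RPKM over the 59, against 11.7 RPKM over the 11428 genes tested, and 40 of them averaged 50 RPKM or more. Eef1a1, which encodes the main eEF1A, had the highest mean of the whole table, at 5742 and 5547 RPKM with miR-294, 5865 and 5670 RPKM with siMbd2 and 6342 and 5748 RPKM in CTR. The next in level among the 62 genes were Eef1b2, Eif4a1, Eef2 and Eif5a, at ranks 53, 74, 81 and 97 of the table. The 62 genes together held 3.58% and 3.54% of the summed RPKM with miR-294, 3.24% and 3.23% with siMbd2 and 3.39% and 3.34% in CTR. Without Eef1a1 these shares were 2.42% and 2.41% with miR-294, 1.99% and 2.01% with siMbd2 and 1.98% and 2.0% in CTR, so the miR-294 pair stood above the other 4 libraries.

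At the bottom of the range, Eef1a2, the eEF1A form of nerve and muscle, was at 0.23 and 0.24 RPKM with miR-294, 0.13 and 0.12 RPKM with siMbd2 and 0.06 RPKM in both CTR libraries. Eif4e3, a relative of the cap-binding protein, was at 0.41 and 0.37 RPKM with miR-294, 0.49 and 0.40 RPKM with siMbd2 and 0.99 and 1.0 RPKM in CTR. Eif4ebp3, the least studied 4E-BP, was at 0.79 and 0.85 RPKM with miR-294, 0.18 and 0.28 RPKM with siMbd2 and 1.01 and 0 RPKM in CTR. These 3 genes were not tested. Of the 62 genes 26 share exon positions with another annotated gene, 16 of them with a gene on the opposite strand (Banf1 at Eif1ad, Serp1 at Eif2a and Aimp2 at Eif2ak1 among them), and the sources used here do not say whether counting used the strand.

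The first comparison asks what the microRNA mimic does to these mRNAs in cells that lack canonical microRNAs. With miR-294, 47 of the 59 genes rose against CTR and 5 fell, at a limma adjusted p under 0.05. Over all genes tested 27.7% rose and 36.8% fell. The median log2 change was 0.43 for the translation factor genes and -0.08 for all genes, on the log2(RPKM + 1) scale on which changes are given throughout. Abundant genes in general moved up, and the plot of change against level shows this: of the 1556 genes averaging 50 RPKM or more, 56% rose and 18.6% fell, with a median of 0.24. Of the 40 translation factor genes at that level 37 rose and 1 fell, with a median of 0.49. With the libraries quantile normalized, which sets their distributions equal, 34 of the 59 rose and 5 fell, beside 31.9% and 30.4% of all genes, and the median was 0.26.

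Both miR-294 libraries lay above both CTR libraries for 48 of the 59 genes, beside 35% of all genes tested, and below both for 10, beside 46%. The groups overlapped for Eef2 alone. The plot by role shows the 12 genes that did not rise: Eif2ak2, Eif5a2, Eif2s3y, Eef2k and Eif4a2 fell, and Eif2ak3, Eif2ak4, Eif4enif1, Eif4g3, Eif5b, Eef1a1 and Eef2 were not called. Of the 52 calls 32 held under each of the 15 alternatives that tested the gene, 30 of them higher and 2 lower (Eif2ak2, and Eif5a2, which a minimum of 5 RPKM left untested).

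**Figure D1:**
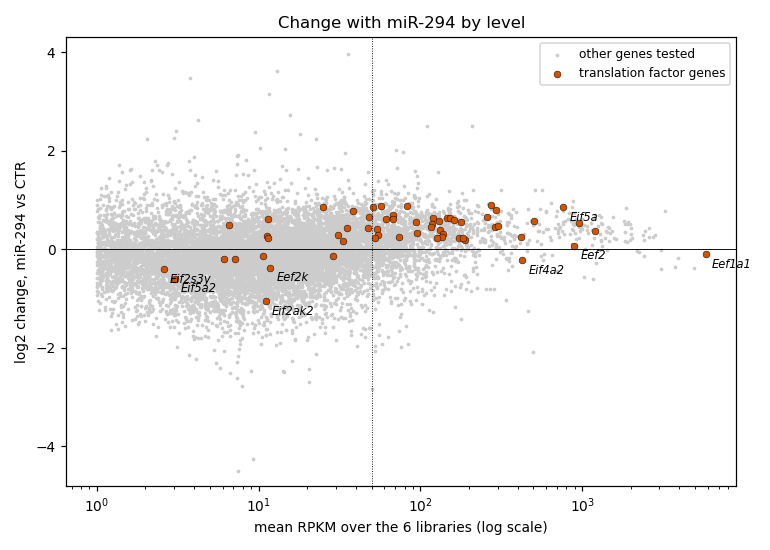
Log2 change between miR-294 and CTR (vertical axis) against the mean RPKM over the 6 libraries (horizontal axis, log scale) for the 59 translation factor genes (orange) and the other genes tested (grey); the dotted line marks 50 RPKM. Right of that line 37 of the 40 translation factor genes rose and Eif4a2 fell.

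**Figure D2:**
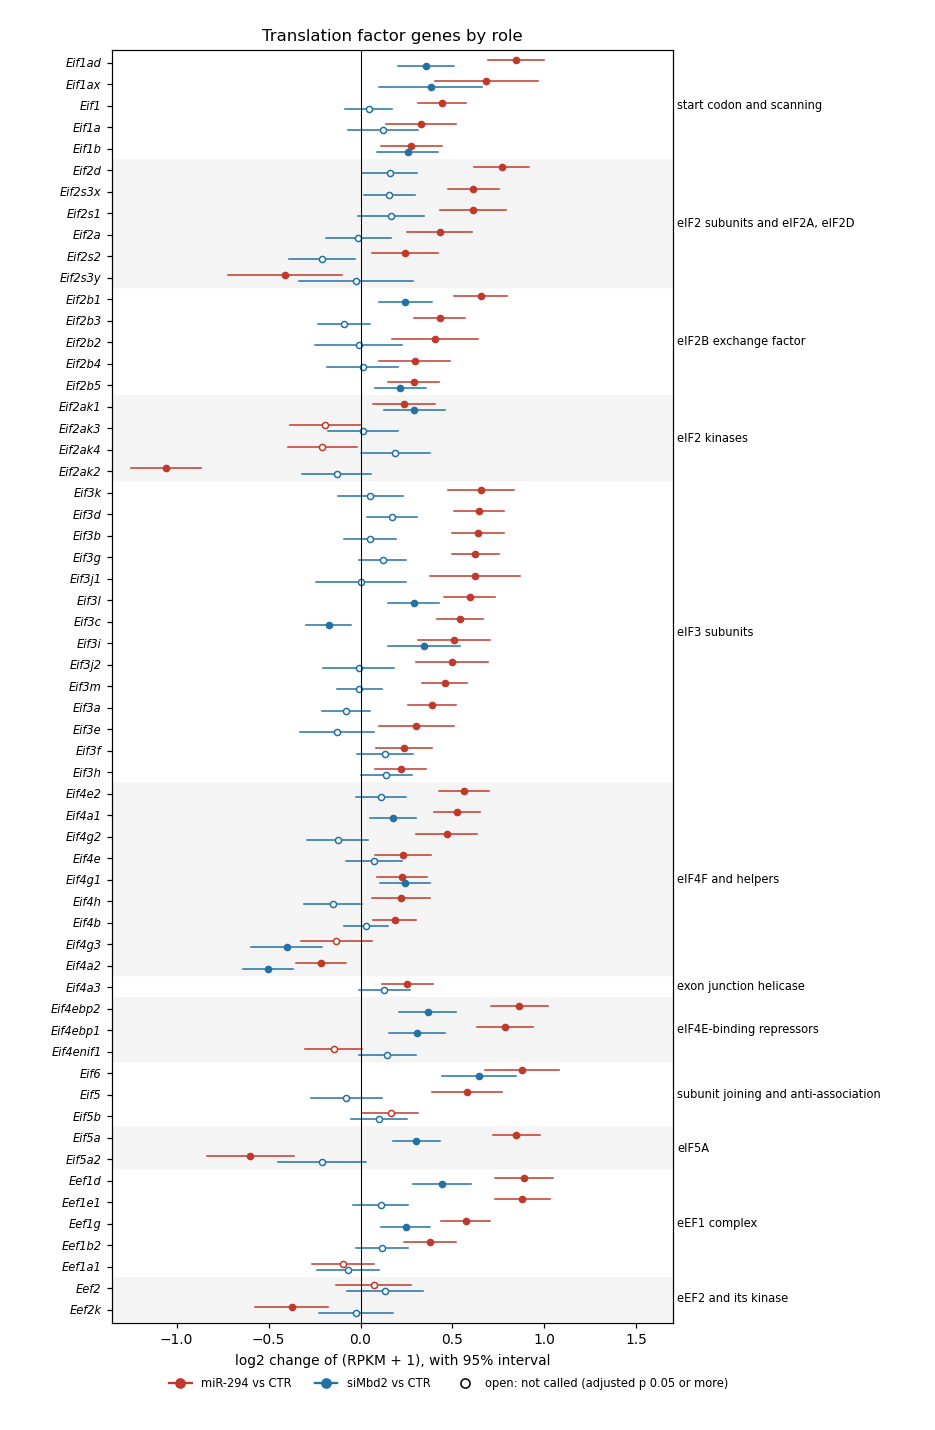
Log2 change of (RPKM + 1), with its 95% interval, for each of the 59 genes tested, by role; red is miR-294 against CTR, blue is siMbd2 against CTR, and open circles are genes not called. Red points lie to the right of 0 for the 14 eIF3 subunits and the 5 eIF2B subunits, and Eif2ak2 lies farthest to the left.

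Start codon selection and scanning depend on eIF1 and eIF1A. All 5 genes of this group rose with miR-294 (median 0.44), and 4 rose after quantile normalization. Eif1ad, whose protein has an eIF1A-like domain, was at 32.5 and 34.7 RPKM with miR-294, 24.0 and 23.3 RPKM with siMbd2 and 18.7 and 17.8 RPKM in CTR. It kept the 3 groups apart, and its log2 change with miR-294 was 0.85 (95% interval 0.69 to 1.0, adjusted p = 1.53e-05). Eif1, which guards the choice of start codon, rose by 0.44 (adjusted p = 0.000187). Eif1ax and Eif1a encode near-identical eIF1A proteins, so reads may be shared between them, and they rose by 0.68 and 0.33. Eif1b, a close relative of Eif1, rose by 0.28. Without miR-294 replicate 2, Eif1a and Eif1b were not called (0.25 and 0.26, adjusted p = 0.0773 and 0.074), and after quantile normalization Eif1a was not (0.14, adjusted p = 0.204).

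The eIF2 group holds the 3 subunits of eIF2 and the tRNA-binding factors eIF2A and eIF2D, and 5 of its 6 genes rose while the Y-linked Eif2s3y fell; after quantile normalization 4 rose and none fell. Eif2s1 encodes the alpha subunit, the target of the stress kinases. It was at 77.3 and 78.1 RPKM with miR-294, 57.1 and 56.5 RPKM with siMbd2 and 46.5 and 54.9 RPKM in CTR, and its miR-294 libraries lay above the other 4. The log2 change was 0.61 (95% interval 0.43 to 0.79, adjusted p = 0.000193). Eif2d, linked to reinitiation and to the release of used ribosomes, was at 51.8 and 51.7 RPKM with miR-294, 34.7 and 32.5 RPKM with siMbd2 and 31.2 and 28.8 RPKM in CTR. Its log2 change was 0.77 (95% interval 0.62 to 0.92, adjusted p = 2.28e-05). Rassf5, on the opposite strand, shares exon positions with Eif2d.

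The gamma subunit of eIF2 is encoded on both sex chromosomes of the mouse, and its copies moved apart. Eif2s3x was at 85.3 and 85.0 RPKM with miR-294, 59.3 and 64.3 RPKM with siMbd2 and 54.1 and 56.5 RPKM in CTR, and it rose by 0.61 (adjusted p = 4.99e-05). Eif2s3y was far lower, at 1.91 and 2.02 RPKM with miR-294, 3.32 and 2.46 RPKM with siMbd2 and 3.35 and 2.56 RPKM in CTR. It fell by 0.41 (95% interval -0.72 to -0.10, adjusted p = 0.0266), and it was not called after quantile normalization (-0.22, adjusted p = 0.141). It was also not called without CTR replicate 1 (-0.26, adjusted p = 0.135), miR-294 replicate 1 (-0.38, adjusted p = 0.108) or miR-294 replicate 2 (-0.44, adjusted p = 0.0734). The 2 mRNAs are similar in sequence, so reads may be shared. Eif2s2, the beta subunit, rose by 0.24, with -0.03 after quantile normalization and adjusted p of 0.105 and 0.107 without miR-294 replicate 1 and 2. Eif2a, an alternative carrier of the initiator tRNA, rose by 0.43.

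The exchange factor eIF2B restores eIF2 to its active form after each round, and 5 of its 5 subunit genes rose with miR-294, also after quantile normalization. The log2 changes were 0.65 for Eif2b1, 0.43 for Eif2b3, 0.40 for Eif2b2, 0.30 for Eif2b4 and 0.29 for Eif2b5, the catalytic subunit. Eif2b1, which senses phosphorylated eIF2 together with other subunits, was at 61.9 and 59.4 RPKM with miR-294, 43.8 and 46.9 RPKM with siMbd2 and 37.3 and 39.1 RPKM in CTR. Without miR-294 replicate 1, Eif2b2 and Eif2b4 were not called (0.29 and 0.19, adjusted p = 0.0726 and 0.138).

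The 4 eIF2 kinases did not move together. Eif2ak2 encodes PKR, the kinase that responds to double-stranded RNA. It was at 6.40 and 6.18 RPKM with miR-294, 12.9 and 12.8 RPKM with siMbd2 and 13.3 and 15.1 RPKM in CTR. The miR-294 libraries lay far below the other 4, and the siMbd2 and CTR ranges lay close together. The log2 change with miR-294 was -1.06 (95% interval -1.25 to -0.87, adjusted p = 1.53e-05), the lowest of the 59 genes, and the ratio of mean RPKM was 0.443. With siMbd2 it was -0.13 (95% interval -0.32 to 0.06, adjusted p = 0.253), and -0.22 (adjusted p = 0.0389) without CTR replicate 1. Eif2ak1 encodes the heme-regulated kinase and was at 12.02 and 11.7 RPKM with miR-294, 12.3 and 12.5 RPKM with siMbd2 and 10.2 and 9.64 RPKM in CTR. It rose by 0.24 with miR-294 (adjusted p = 0.0194) and by 0.29 with siMbd2 (adjusted p = 0.016). Both calls were lost without either library of the treated pair, with 0.22 and 0.25 (adjusted p = 0.118 and 0.0788) without miR-294 replicate 1 and 2, and 0.31 and 0.28 (adjusted p = 0.091 and 0.126) without siMbd2 replicate 1 and 2.

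The kinases of the unfolded protein response and of amino acid shortage were not called with miR-294, though both were called lower in the fit with no intensity trend (adjusted p = 0.0436 for Eif2ak3 and 0.0366 for Eif2ak4). Eif2ak3 (PERK) was at 5.63 and 5.24 RPKM with miR-294, 6.27 and 6.59 RPKM with siMbd2 and 6.48 and 6.24 RPKM in CTR, a change of -0.19 (adjusted p = 0.068). Eif2ak4 (GCN2) was at 5.92 and 6.11 RPKM with miR-294, 8.16 and 8.31 RPKM with siMbd2 and 7.44 and 6.77 RPKM in CTR, a change of -0.21 (adjusted p = 0.0529). For both genes the miR-294 libraries lay below the other 4. Without CTR replicate 2, Eif2ak4 was called lower (-0.27, adjusted p = 0.0171).

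The eIF3 complex is the largest initiation factor. With miR-294, 14 of its 14 subunit genes rose, by 0.22 to 0.66, with a median of 0.53; after quantile normalization 10 rose, the call was lost for Eif3a, Eif3e and Eif3f, and Eif3h turned to -0.04. Eif3k had the largest change (0.66, adjusted p = 0.000134), at 337.0 and 340.2 RPKM with miR-294, 224.2 and 221.4 RPKM with siMbd2 and 233.8 and 196.8 RPKM in CTR. Eif3d, the subunit that can bind the cap itself, was at 185.4 and 184.4 RPKM with miR-294, 133.3 and 132.6 RPKM with siMbd2 and 123.7 and 112.8 RPKM in CTR. The scaffold subunits Eif3b and Eif3c rose by 0.64 and 0.54, and Eif3g, which supports scanning, by 0.62. Eif3c was at 235.4 and 229.5 RPKM with miR-294, 141.9 and 140.6 RPKM with siMbd2 and 163.9 and 155.1 RPKM in CTR, so the siMbd2 pair was the lowest there. Eif3j1 and Eif3j2 are near-identical copies that may share reads, and they rose by 0.62 and 0.50. Eif3f and Eif3h were not called without miR-294 replicate 1 (0.20 and 0.18, adjusted p = 0.107 and 0.118), nor was Eif3e without miR-294 replicate 2 (0.27, adjusted p = 0.0878).

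The eIF4F complex and its helpers moved less, and the call depends on the scaling. With miR-294, 7 of 9 genes rose and Eif4a2 fell, with a median of 0.23; after quantile normalization 2 rose and 1 fell, the median was 0.03 and the signs of Eif4b, Eif4g1 and Eif4h turned. Eif4e, the cap-binding protein itself, was at 57.2 and 56.7 RPKM with miR-294, 51.4 and 50.6 RPKM with siMbd2 and 45.7 and 51.2 RPKM in CTR. It rose by 0.23 (95% interval 0.08 to 0.38, adjusted p = 0.0141), with 0.13 and an adjusted p of 0.178 after quantile normalization. The scaffold gene Eif4g1 was at 199.1 and 184.3 RPKM with miR-294, 189.5 and 197.7 RPKM with siMbd2 and 166.4 and 160.7 RPKM in CTR, a rise of 0.23 (adjusted p = 0.00945). Eif4g2 encodes a scaffold that lacks the eIF4E-binding region, and Eif4e2 a cap-binding repressor. They rose by 0.47 for Eif4g2 (adjusted p = 0.000581) and 0.56 for Eif4e2 (adjusted p = 6.67e-05). Without miR-294 replicate 1, Eif4b, Eif4e, Eif4g1 and Eif4h had adjusted p of 0.114, 0.0831, 0.117 and 0.106, and without miR-294 replicate 2, Eif4b, Eif4e and Eif4h had 0.0688, 0.0697 and 0.0895.

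The helicase eIF4A comes in 2 forms, of which Eif4a1 rose and Eif4a2 fell with miR-294; Eif4a1 was not called after quantile normalization and Eif4a2 was not called with median-of-ratios scaling or without either miR-294 library. Eif4a1, the main form in dividing cells, was at 1178 and 1135 RPKM with miR-294, 907.5 and 909.0 RPKM with siMbd2 and 796.4 and 810.2 RPKM in CTR. It rose by 0.52 with miR-294 (95% interval 0.40 to 0.65, adjusted p = 6.25e-05), with 0.13 and an adjusted p of 0.0604 after quantile normalization. Eif4a2, the form of slowly dividing cells and nerve, was at 423.0 and 433.8 RPKM with miR-294, 359.5 and 342.1 RPKM with siMbd2 and 479.2 and 516.6 RPKM in CTR. It fell by 0.22 with miR-294 (95% interval -0.35 to -0.08, adjusted p = 0.0123), with -0.15 (adjusted p = 0.072) after median-of-ratios scaling, -0.20 (adjusted p = 0.104) without miR-294 replicate 1 and -0.23 (adjusted p = 0.0625) without miR-294 replicate 2. Eif4a2 hosts small nucleolar RNAs and shares exon positions with 7 other annotated genes, Rfc4 on the opposite strand among them. A scale factor of a library cancels in a ratio within it. The RPKM ratio of Eif4a1 to Eif4a2 was 2.78 and 2.62 with miR-294, 2.52 and 2.66 with siMbd2 and 1.66 and 1.57 in CTR, and both treated pairs lay above the CTR pair. Eif4a3, a relative that works in the exon junction complex, rose by 0.25, with 0.01 and an adjusted p of 0.827 after quantile normalization and 0.25 and 0.051 without miR-294 replicate 2.

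The 4E-BPs, which keep eIF4E from eIF4G, were among the genes that rose most with miR-294. Eif4ebp1 was at 386.5 and 379.4 RPKM with miR-294, 282.3 and 267.4 RPKM with siMbd2 and 235.0 and 209.2 RPKM in CTR. Its log2 change was 0.79 (95% interval 0.63 to 0.94, adjusted p = 2.39e-05). Eif4ebp2 was at 68.4 and 67.2 RPKM with miR-294, 46.7 and 48.6 RPKM with siMbd2 and 39.0 and 34.8 RPKM in CTR, a change of 0.86 (95% interval 0.71 to 1.02, adjusted p = 1.53e-05). Both genes kept the 3 groups apart in the same order. The RPKM ratio of Eif4ebp1 to Eif4e was 6.75 and 6.69 with miR-294, 5.49 and 5.28 with siMbd2 and 5.15 and 4.09 in CTR. Eif4enif1, whose product carries eIF4E into the nucleus and to processing bodies, was at 27.0 and 24.9 RPKM with miR-294, 32.6 and 31.3 RPKM with siMbd2 and 28.0 and 29.6 RPKM in CTR, and its change of -0.15 was not called (adjusted p = 0.0885), though it was without CTR replicate 1 (-0.18, adjusted p = 0.0349).

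At the joining of the ribosomal subunits, Eif6 encodes the factor that keeps the large subunit free until it is needed. It was at 105.0 and 101.8 RPKM with miR-294, 87.5 and 87.8 RPKM with siMbd2 and 61.7 and 50.4 RPKM in CTR. The CTR pair was the lowest and the most spread, and the log2 change with miR-294 was 0.88 (95% interval 0.68 to 1.08, adjusted p = 5.06e-05). Eif5, which triggers GTP hydrolysis on eIF2 at the start codon, was at 166.8 and 171.2 RPKM with miR-294, 104.9 and 108.8 RPKM with siMbd2 and 102.7 and 123.8 RPKM in CTR, and it rose by 0.58 (adjusted p = 0.000383). Eif5b, the GTPase of subunit joining, changed by 0.16 and was not called (adjusted p = 0.056), though it was with median-of-ratios scaling (0.23, adjusted p = 0.0216) and without CTR replicate 2 (0.23, adjusted p = 0.00383).

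The 2 genes of eIF5A, the hypusine-bearing factor that helps ribosomes past difficult stretches, also moved apart. Eif5a was at 1033 and 1014 RPKM with miR-294, 692.0 and 712.0 RPKM with siMbd2 and 582.2 and 555.5 RPKM in CTR. It had the smallest adjusted p of the 59 genes (7.33e-06), with a log2 change of 0.85 (95% interval 0.72 to 0.97). Eif5a2, its minor copy, was at 2.04 and 2.31 RPKM with miR-294, 3.33 and 2.98 RPKM with siMbd2 and 3.50 and 4.13 RPKM in CTR. It fell by 0.60 (95% interval -0.84 to -0.36, adjusted p = 0.00109). The RPKM ratio of Eif5a to Eif5a2 was 506.5 and 438.8 with miR-294, 207.8 and 238.9 with siMbd2 and 166.4 and 134.5 in CTR.

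In elongation, 4 of the 5 eEF1 genes tested rose with miR-294, and 3 after quantile normalization, while Eef1a1 was not called. Eef1d, the delta subunit of the exchange factor of eEF1A, was at 365.5 and 351.1 RPKM with miR-294, 258.2 and 267.5 RPKM with siMbd2 and 205.5 and 181.3 RPKM in CTR. Its log2 change of 0.89 (95% interval 0.73 to 1.05, adjusted p = 1.46e-05) was the highest of the 59 genes. Eef1e1 encodes a helper protein of the tRNA synthetase complex and was at 83.1 and 79.4 RPKM with miR-294, 48.1 and 46.4 RPKM with siMbd2 and 41.6 and 45.9 RPKM in CTR. It rose by 0.88 (95% interval 0.73 to 1.03, adjusted p = 1.29e-05), and its siMbd2 and CTR libraries lay close together. Eef1g, the gamma subunit, rose by 0.57, and Eef1b2, the beta subunit, by 0.38, with 0.00 after quantile normalization. Eef1a1 changed by -0.10 (95% interval -0.27 to 0.07, adjusted p = 0.272), and it was called without CTR replicate 2 (-0.17, adjusted p = 0.01).

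Eef2, the translocation factor, was at 910.4 and 884.0 RPKM with miR-294, 950.4 and 922.0 RPKM with siMbd2 and 944.1 and 771.8 RPKM in CTR, where the CTR pair spanned the other 2 groups. Its change of 0.07 was not called (95% interval -0.13 to 0.28, adjusted p = 0.502), while after quantile normalization it was called lower (-0.37, adjusted p = 0.000522) and without CTR replicate 1 higher (0.22, adjusted p = 0.00206). Eef2k, the kinase that inhibits eEF2, was at 10.4 and 9.15 RPKM with miR-294, 12.6 and 12.8 RPKM with siMbd2 and 13.6 and 12.3 RPKM in CTR. It fell by 0.37 with miR-294 (95% interval -0.57 to -0.17, adjusted p = 0.00527), and it lost the call without miR-294 replicate 2 (-0.29, adjusted p = 0.0574).

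**Figure D3:**
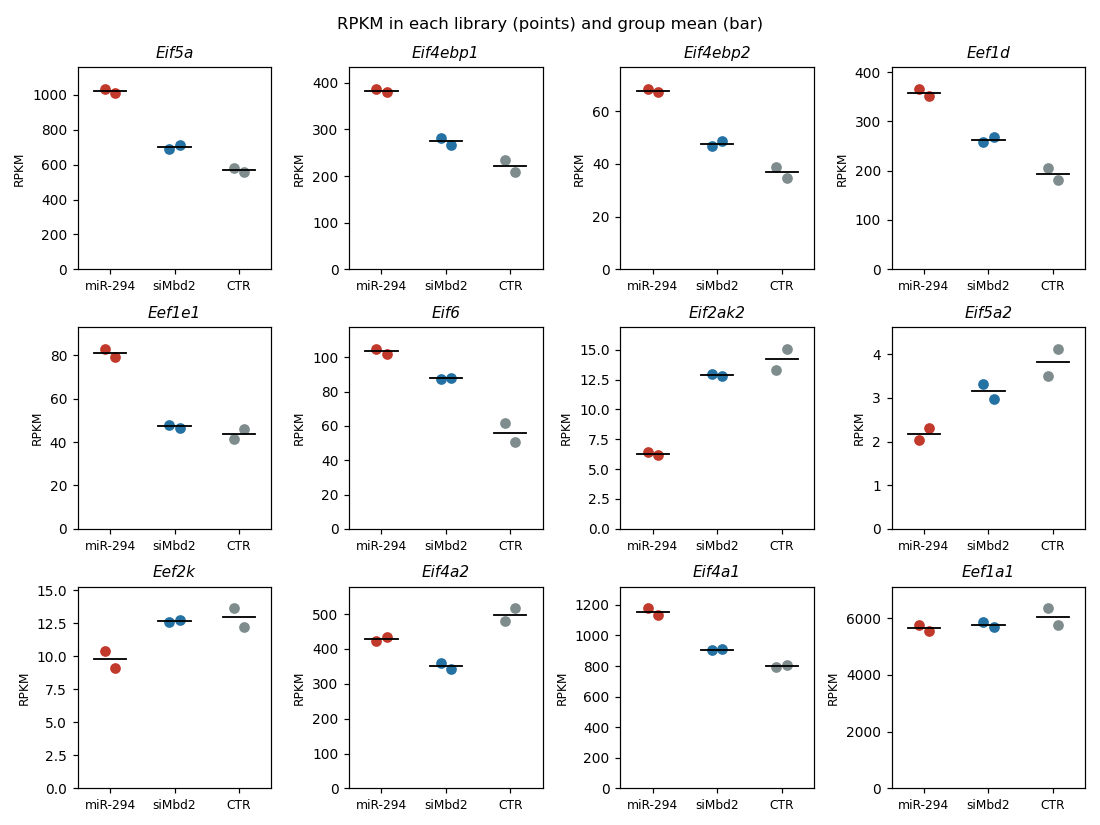
RPKM of 12 genes in each library (points) with the mean of the pair (bar), for miR-294, siMbd2 and CTR; each vertical axis starts at 0. Eif5a, Eif4ebp1, Eif4ebp2, Eef1d and Eif6 step down over the 3 groups, Eif2ak2 is low in the miR-294 pair (6.40 and 6.18 RPKM) and Eif4a2 is highest in the CTR pair.

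MicroRNAs act on mRNAs that pair with their seed, bases 2 to 8 from the 5′ end, so the sequences of miR-294 and of its matches are shown for the genes that carry the longest match and for those that fell. The mature miR-294-3p sequence (RefSeq, GRCm38, chr7:3220691-3220712, plus strand, seed in capitals) reads as follows.
miR-294-3p: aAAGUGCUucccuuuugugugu

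Matches to bases 2 to 8 were read from the longest 3′ UTR of each gene in GENCODE vM21 (GRCm38, the assembly of mm10), on the strand of the gene. The longest was taken over all annotated transcripts with a stop codon, which need not be the main mRNA of the gene. An 8-base match adds an A after the 7 paired bases, and 4 of the 59 genes hold it. Each window below has 30 bases with the match in capitals.
Eif2s2 (chr2:154871992-154871999, minus strand): aagcatatagtacagacttcttAGCACTTA
Eif4b (chr15:102096091-102096098, plus strand): aatggtcatttctggatgaggaAGCACTTA
Eif4e (chr3:138557732-138557739, plus strand): ctatataggaattaataactacAGCACTTA
Eif4e2 (chr1:87238472-87238479, plus strand): gactcttcttcttgggcactgaAGCACTTA

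Of the 5 genes that fell with miR-294, 4 hold the 7-base match without that A, and Eif2s3y holds none. The match lies at base 2369 of the 2575 bases of the Eif2ak2 3′ UTR, at base 2429 of 4391 in Eif5a2, at base 2625 of 4059 in Eef2k and at base 1574 of 1618 in Eif4a2.
Eif2ak2 (chr17:78852764-78852770, minus strand): aagagtttctcgctgcttctcaaAGCACTT
Eif5a2 (chr3:28796884-28796890, plus strand): tgccagtcacttgaagtggaccaAGCACTT
Eef2k (chr7:120906016-120906022, plus strand): gttcaaacctgtaatctcagcacAGCACTT
Eif4a2 (chr16:23114092-23114098, plus strand): gtgttcatctgcaccatctgccaAGCACTT

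Of the 16 translation factor genes tested that hold a match of any kind, 12 rose with miR-294 and 4 fell. Over all genes tested with a match, 378 rose and 1200 fell of 2375. The 4 genes with the 8-base match rose with miR-294, by 0.19 to 0.56, whereas of 410 genes tested with that match 47 rose and 250 fell, with a median log2 change of -0.37. After quantile normalization Eif2s2 and Eif4b turned to -0.03 and -0.05, Eif4e was not called (0.13, adjusted p = 0.178) and Eif4e2 kept its call. Of the 9 genes with the 7-base match, 5 rose (Eif2d, Eif2b1, Eif2s3x, Eif4g2 and Eif2b3) and 4 fell, beside 260 that rose and 772 that fell of 1596 genes tested. The matches of Eif2d (from chr1:131166380) and Eif2b3 (from chr4:117072311) lie well before the ends of these plus-strand genes, at 131187658 and 117087306. Whether the main mRNA of these genes carries the match was not tested. The 3 genes whose match covers bases 2 to 7 and then an A, Eif3j1, Eif5 and Eef1b2, rose, beside 71 that rose and 178 that fell of 369. Of the 43 genes with no match 35 rose and 1 fell, beside 2620 and 2820 of 8453. The median change of the translation factor genes was 0.24 with the 8-base match and 0.43 with no match. It was 0.43 with the 7-base match and 0.58 with the match to bases 2 to 7 and A. Over all genes the medians were -0.37 (8-base), -0.21 (7-base), -0.22 (bases 2 to 7 and A) and -0.03 (no match). The plot by match class shows the 4 lower points in the 7-base class. A match of any kind was held by 27.1% of the 59 genes and by 21.9% of the 10828 genes tested that have an annotated 3′ UTR.

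**Figure D4:**
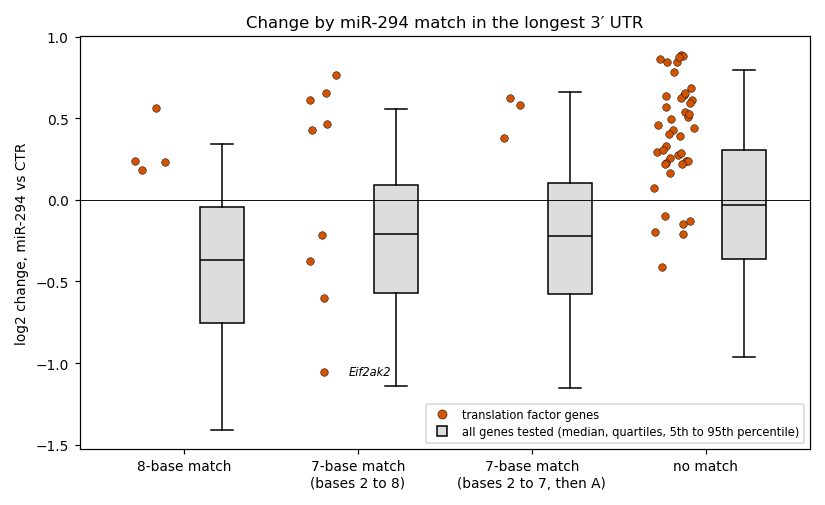
Log2 change between miR-294 and CTR (vertical axis) by the longest match to the miR-294 seed in the 3′ UTR; orange points are translation factor genes, and grey boxes give the median, the quartiles and the 5th to 95th percentile of all genes tested. The 4 genes with the 8-base match lie at 0.19 to 0.56, above the all-gene median of -0.37 for that class.

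The second comparison asks what lowering Mbd2 does to the same mRNAs. With siMbd2, 16 of the 59 genes rose against CTR and 3 fell. Over all genes tested 19.5% rose and 14.9% fell, and the medians were 0.11 for the translation factor genes and 0.02 for all genes. Of the 40 genes averaging 50 RPKM or more 12 rose, beside 32.8% of all genes at that level. After quantile normalization 12 rose and 5 fell, beside 18% and 16.8% of all genes. The count rests on single libraries, and so does the count over all genes, as the ranges in the last section show. Leaving out a library in turn, the median was 0.095 to 0.119 for the translation factor genes and 0.0015 to 0.048 for all genes. The calls of Eif6, Eef1d and Eif4a2 held under each of the 15 alternatives.

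Eif6 rose most, by 0.64 (95% interval 0.44 to 0.84, adjusted p = 0.00139), with a ratio of mean RPKM of 1.56. Eef1d rose by 0.44 (95% interval 0.29 to 0.60, adjusted p = 0.00234). Eif4a2 fell by 0.50 (95% interval -0.64 to -0.37, adjusted p = 0.000904), and its siMbd2 libraries lay below the other 4. Eif4ebp2 and Eif4ebp1 rose by 0.36 (adjusted p = 0.00501) and 0.31 (adjusted p = 0.00966), Eif1ad and Eif1ax by 0.36 and 0.38, and Eif3i by 0.34. Eif5a rose by 0.30 (95% interval 0.18 to 0.43, adjusted p = 0.00467). Without siMbd2 replicate 2, Eif4ebp1, Eif4ebp2, Eif5a, Eif1ax and Eif3i were not called (adjusted p = 0.0515, 0.061, 0.0658, 0.171 and 0.0765), and without siMbd2 replicate 1 neither were Eif4ebp1, Eif1ad, Eif1ax and Eif3i (adjusted p = 0.0886, 0.0528, 0.132 and 0.101).

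By role, 3 of the 5 start codon genes rose (Eif1ad, Eif1ax and Eif1b), and 2 after quantile normalization. Of the 3 eIF4E-binding repressors tested 2 rose (Eif4ebp1 and Eif4ebp2), also after quantile normalization. Eif1b rose by 0.26 (limma adjusted p = 0.0275). It lost the call without either siMbd2 library (0.25 and 0.26 without replicate 1 and 2). Of the 6 eIF2 genes none was called, and Eif2s1 changed by 0.17 (95% interval -0.01 to 0.34, adjusted p = 0.132). That count rests on single CTR libraries. Without CTR replicate 2, Eif2s1 and Eif2s3x were called higher (0.28 and 0.19, adjusted p = 0.00293 and 0.0339). Without CTR replicate 1, Eif2d was called higher (0.21, adjusted p = 0.0164) and Eif2s2 lower (-0.33, adjusted p = 0.000523). Of the 14 eIF3 genes Eif3i and Eif3l rose and Eif3c fell by 0.17 (adjusted p = 0.0376), with a median of 0.05, and the number that rose was 0 to 8 when 1 library was left out. In the eIF4F group Eif4g1 rose by 0.24 (adjusted p = 0.0156) and Eif4a1 by 0.18 (adjusted p = 0.0359), Eif4a1 with -0.01 after quantile normalization, and Eif4a2 and Eif4g3 fell. Eif4g3, a minor scaffold, was at 11.7 and 10.3 RPKM with miR-294, 9.17 and 8.69 RPKM with siMbd2 and 12.4 and 11.8 RPKM in CTR, and it fell by 0.40 with siMbd2 (adjusted p = 0.00846). Eif4e changed by 0.08 (95% interval -0.08 to 0.23, adjusted p = 0.409), and it was called without CTR replicate 2 (0.16, adjusted p = 0.0285). In eIF2B, Eif2b1 and Eif2b5 rose, while after quantile normalization none of the 5 rose and 1 fell. In elongation Eef1g rose by 0.25 (adjusted p = 0.0131), and Eef1a1, Eef2 and Eef2k changed by -0.07, 0.13 and -0.03 with adjusted p of 0.517, 0.279 and 0.843. Eef2 was called higher without CTR replicate 1 (0.28, adjusted p = 0.00168) and Eef1a1 lower without CTR replicate 2 (-0.14, adjusted p = 0.0407). None of the calls of Eif3i, Eif3l, Eif3c, Eif4g1, Eif4a1, Eif2b1, Eif2b5 and Eef1g held when one or the other siMbd2 library was left out, with adjusted p of 0.0576 to 0.214, and Eif4g3 lost its call without siMbd2 replicate 2 (-0.37, adjusted p = 0.0811).

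The third comparison sets the mimic directly against the knockdown, with the CTR libraries entering only the shared estimate of spread. Between miR-294 and siMbd2, 38 of the 59 genes were higher with miR-294 and 6 were lower, with a median of 0.35. Over all genes tested 21.9% were higher and 35.5% lower, with a median of -0.08; after quantile normalization that median was 0.03, with 28.8% higher and 27.1% lower. The translation factor genes then counted 32 higher and 5 lower (Eif2ak2, Eif2ak4, Eif4enif1, Eef2 and Eif4g1), with a median of 0.23. At 50 RPKM or more, 29 of 40 genes were higher and 0 were lower by limma, beside 45.4% and 20.3% of all genes at that level.

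Eef1e1 differed most, by 0.77 (95% interval 0.62 to 0.92, adjusted p = 3.8e-05). Eif3c followed with 0.71 (adjusted p = 2.14e-05), Eif5 with 0.66 and Eif3j1 with 0.62. Of the eIF3 genes 11 of 14 were higher, and 10 after quantile normalization. The 8 largest differences also held Eif2d, Eif3k, Eif4g2 and Eif3b, at 0.59 to 0.61. At the lower end stood Eif2ak2 with -0.93 (95% interval -1.12 to -0.74, adjusted p = 4.78e-05), Eif2ak4 with -0.40 (adjusted p = 0.00346), Eif5a2 with -0.39 (adjusted p = 0.0121), Eif2s3y with -0.38 (adjusted p = 0.0385), Eef2k with -0.35 (adjusted p = 0.00882) and Eif4enif1 with -0.29 (adjusted p = 0.00608). After quantile normalization Eif5a2, Eif2s3y and Eef2k were not called (adjusted p = 0.104, 0.106 and 0.0947), nor was Eif2s3y with median-of-ratios scaling (adjusted p = 0.0523). Leaving out a miR-294 or siMbd2 library in turn, Eif2s3y lost the call without 3 of the 4 (adjusted p = 0.1 to 0.266), Eif5a2 without replicate 1 of either group (0.0899 and 0.0914), and Eef2k and Eif4enif1 without 2 each (0.0607 to 0.0884). Eif4g1, Eif1b and Eif2ak1 were not called, with differences of -0.01 (95% interval -0.15 to 0.12), 0.02 (95% interval -0.15 to 0.19) and -0.06 (95% interval -0.22 to 0.11). After quantile normalization Eif4g1 was called lower (-0.20, adjusted p = 0.014) and Eif1b higher (0.19, adjusted p = 0.0443).

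Over the 3 groups, 33 of the 59 genes had their highest mean with miR-294, a middle one with siMbd2 and the lowest in CTR. Another 13 were highest with miR-294 and lowest with siMbd2, among them Eif3c and Eif4g2. The reverse of the first order, with miR-294 lowest and CTR highest, was found for 5 genes. These orders ignore error, and they were not counted over all genes. The summed RPKM of all genes also stepped down, from miR-294 (493079 and 488568) over siMbd2 (470333 and 464663) to CTR (450520 and 429460).

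**Figure D5:**
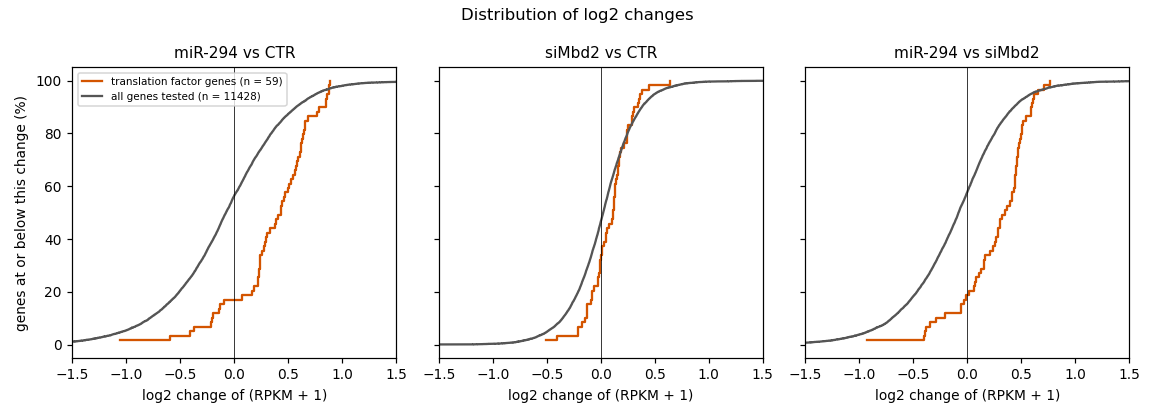
Share of genes (vertical axis, percent) at or below each log2 change (horizontal axis) for the 59 translation factor genes (orange) and the 11428 genes tested (grey) in the 3 comparisons. The orange curve lies to the right in the comparisons with miR-294 (medians 0.43 and 0.35) and close to the grey curve for siMbd2 against CTR (median 0.11).

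Other genes of translation that the name rule leaves out were described in 7 lists with 59 genes, all tested. With miR-294, 29 rose and 8 fell, with a median of 0.22, beside the 27.7% and 36.8% of all genes. With siMbd2, 16 rose and 6 fell, with a median of 0.07, beside 19.5% and 14.9% of all genes. Between miR-294 and siMbd2, 25 were higher and 9 lower, beside 21.9% and 35.5%.

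In termination and recycling, 7 of 9 genes rose with miR-294 and none fell, and 6 rose after quantile normalization. Mcts2 and Denr, partners in recycling and reinitiation, rose by 0.76 and 0.69, and Etf1, the release factor that reads stop codons, by 0.71 (adjusted p = 4.42e-05). Etf1 averaged 167.6 RPKM with miR-294, 103.5 RPKM with siMbd2 and 102.0 RPKM in CTR. With siMbd2 4 of the 9 rose, with Denr at 0.47, Gspt2 at 0.36 and Pelo at 0.26.

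Among poly(A)-binding proteins and their partners 5 of 9 rose with miR-294 and 2 fell. Pabpc4, a poly(A)-binding protein, averaged 122.4 RPKM with miR-294, 65.7 RPKM with siMbd2 and 49.9 RPKM in CTR, and it rose by 1.28 with miR-294 and by 0.39 with siMbd2. Pabpc1, the main one, averaged 740.5 RPKM with miR-294, 480.3 RPKM with siMbd2 and 422.6 RPKM in CTR, a rise of 0.81 and of 0.18. Pdcd4, an inhibitor of eIF4A, fell by 0.48 with miR-294.

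The enzymes that finish eIF5A and eEF2 by making hypusine and diphthamide included 5 of 9 genes that rose with miR-294 and none that fell, and 8 rose after quantile normalization. Dph3, a diphthamide enzyme subunit, averaged 45.2 RPKM with miR-294, 34.0 RPKM with siMbd2 and 19.8 RPKM in CTR, and it rose by 1.15 and by 0.75. Dohh, which completes hypusine, rose by 0.61 with miR-294 (adjusted p = 0.000187).

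Signalling from mTOR and the MNK kinases went both ways, with 3 of 13 genes higher and 3 lower with miR-294, and 6 higher and 2 lower after quantile normalization. Akt1s1, an inhibitor within the mTOR complex, rose by 0.99 (adjusted p = 0.000165), and Rictor, a subunit of mTOR complex 2, fell by 0.63 (adjusted p = 0.00019). Mknk2, a kinase of eIF4E, averaged 13.5 RPKM with miR-294, 23.9 RPKM with siMbd2 and 20.4 RPKM in CTR, and it fell by 0.55 with miR-294. With siMbd2, Deptor, Mknk1 and Rheb fell by 0.43, 0.40 and 0.32.

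The eIF2 phosphatase list had 2 of 6 genes higher and 2 lower with miR-294, and 4 higher and none lower with median-of-ratios scaling. Ppp1r15a, which brings the phosphatase to eIF2, rose by 0.44, and Nck1, an adaptor, fell by 0.26. Mitochondrial translation factors had 4 of 9 higher and 1 lower, with Mtrf1 at 0.56 and Mtrf1l at -0.66. Bzw2, a relative of eIF5 that competes with it, averaged 66.3 RPKM with miR-294, 34.5 RPKM with siMbd2 and 36.8 RPKM in CTR, and it rose by 0.83 with miR-294 (adjusted p = 9.35e-06).

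The E-box CACGTG, a palindrome that reads the same on both strands and is bound by MYC and related factors, was searched in RefSeq promoters (GRCm38.p6) from 250 bases before to 50 bases after the gene start. Of the 49 translation factor genes with an entry 12 hold it, a share of 24.5%, beside 11.7% of the 10170 genes of the deposited table with an entry and 8.1% of all 27025 genes with one. The 3 genes of the eIF4F core, Eif4e, Eif4g1 and Eif4a1, are among the 12, and so are Eif5a and Eef2. Windows of 30 bases from these promoters are shown with the motif in capitals, on the strand of the gene.
Eif4e (chr3:138527204-138527209, plus strand): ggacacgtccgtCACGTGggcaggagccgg
Eif4g1 (chr16:20672673-20672678, plus strand): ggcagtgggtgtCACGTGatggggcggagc
Eif4a1 (chr11:69672607-69672612, minus strand): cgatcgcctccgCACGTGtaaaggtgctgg
Eif5a (chr11:69921455-69921460, minus strand): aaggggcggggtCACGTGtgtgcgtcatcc
Eef2 (chr10:81176588-81176593, plus strand): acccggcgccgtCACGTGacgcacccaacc

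With miR-294, 9 of the 12 genes with the motif rose and 2 fell (Eif5a2 and Eef2k), with a median of 0.23. Of the 36 tested genes without it 27 rose and 3 fell, with a median of 0.44. With siMbd2, 4 of the 12 rose and none fell, and 7 of the 36 rose and 3 fell. Over all genes tested 27.7% rose and 36.8% fell with miR-294, and 19.5% and 14.9% with siMbd2. The calls over all genes were not split by the motif. The motif is a description of the sequence and says nothing of binding.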

How the data were processed

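Values are the authors' RPKM, deposited to 2 decimals as 1 table of the series; per the file headers it also holds fold columns, the ratio of each treatment over mock. The submitters' processing notes name CASAVA 1.7, STAR 2.3.0, Cufflinks and the mm10 build, and each sample is described as an average of lanes. The RPKM table carries no counts, so depth per library is unknown and no counting error is given. Recomputed ratios lay within 5% plus 0.01 of the authors' deposited fold for 61 of the 62 genes for each treatment over mock. Here log2(RPKM + 1) of the 11428 entries with a mean of at least 1 RPKM was modelled by limma 3.58.1 under R 4.3.3: 3 groups in 1 fit, an intensity trend, 3 residual and 5.38 prior degrees of freedom, two-sided tests and Benjamini-Hochberg adjustment over all entries tested. Rose, fell and called mean an adjusted p under 0.05. An exact permutation test of 2 against 2 libraries cannot go below p = 0.333. The fit was also run on simulated data whose noise was drawn from its own estimates, with 100 genes changed at each size. It recovered 100% of log2 changes of 1 and 89% to 96% of log2 changes of 0.5. The assumptions of the fit held there by design, so the run cannot show whether they hold for these libraries. Genes set to be named were the 8 highest and 8 lowest called per contrast plus a set of 17, and up to 3 per related list. Statistics of the set of 17 and of the related lists are not given for every contrast. Other genes named to complete a role group, or for calls that an alternative changed, were chosen after their values were seen. The members and lists were chosen with earlier results of these data known. The alternatives were other pseudocounts, filters, scalings, variance models and samples, a replicate block, and leaving out each library; a restriction to 50 RPKM was added after the results were seen.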

Additional observations from a re-analysis of the deposited data

How the results depend on the processing

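Depth is unknown, each group has 2 libraries, and a lone library left in a group is assumed to vary like the others. Between miR-294 and CTR, 57 to 59 of the 59 genes (57 of the 57 tested at a minimum of 5 RPKM) kept their direction and their side of the threshold under pseudocounts of 0.1 and 0.5, other filters, no trend, median-of-ratios scaling and the 2-group fit. Under quantile normalization 44 of the 59 did so. Leaving out a library in turn, their median was 0.42 to 0.43, but fewer of them were called higher without either miR-294 library. Quantile normalization turned Eef2 to -0.37, Eif2s2 to -0.026, Eif3h to -0.044, Eif4b to -0.051, Eif4g1 to -0.033 and Eif4h to -0.0047 for miR-294 against CTR, Eif4a1 to -0.014 for siMbd2 against CTR and Eif4b to -0.0032 for miR-294 against siMbd2; the cause was not tested. The translation factor medians became 0.26, 0.028 and 0.23 in these 3 comparisons, and 5 genes were lower with siMbd2. Median-of-ratios scaling gave medians of 0.50 against CTR and 0.43 against siMbd2 for miR-294, and 5 related genes lower against CTR. A minimum of 5 RPKM, which tests fewer genes, left 3 translation factor genes lower with miR-294, 1101 of all genes lower with siMbd2, and a median of 0.37 for miR-294 against siMbd2. With only the 2 groups compared, 9 related genes rose with siMbd2. In that fit 5 translation factor genes lost their call with siMbd2 (Eif1ax, Eif1b, Eif2b5, Eif3c and Eif4a1). Between miR-294 and siMbd2, 7 more were called without the CTR libraries in the spread. Of these Eif1a, Eif1ax, Eif3f, Eif3i, Eif4a3 and Eif4e were higher and Eif2ak3 was lower.

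Restricted to 50 RPKM or more, where fewer genes count, 872 rose and 289 fell with miR-294, 510 and 141 with siMbd2, and 707 and 316 were higher and lower between them; translation factor genes lower were 1 and 0 for miR-294 against CTR and siMbd2, with medians of 0.49 and 0.41.

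Leaving out a library in turn, the translation factor genes called lower with miR-294 ranged from 2 to 7 and the related genes lower from 5 to 10. With siMbd2, all genes higher ranged from 848 to 3350 and lower from 562 to 2085, translation factor genes higher from 3 to 27 and lower from 1 to 8, and related genes higher from 4 to 21 and lower from 1 to 10. Between miR-294 and siMbd2, translation factor genes lower ranged from 3 to 7, with a median of 0.32 to 0.38. With the replicate number as a block, 47 rose and 5 fell with miR-294, 17 and 4 with siMbd2, and 40 were higher and 6 lower between them. Eif2s2 was then called lower with siMbd2 (-0.21, adjusted p = 0.0492). The deviations of same-numbered libraries correlated at 0.119 for miR-294 and CTR, 0.132 for siMbd2 and CTR and 0.022 for miR-294 and siMbd2. Such correlations cannot tell whether same-numbered libraries were handled together, and the labels do not say.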
